A study of Mus musculus with 12 samples.

Results

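Genes of the anterior pituitary were followed in hypothalamic RNA from mice that drank water or alcohol. The set comprised 9 genes, namely the hormone genes Gh, Prl, Cga, Lhb, Fshb and Tshb, the transcription factor genes Pou1f1 and Pitx1, and the receptor gene Gnrhr. Members were all array probes, controls excluded, whose gene name in the scanner files was one of these symbols. By this rule 8 of the 9 genes were found, with 9 probes out of 41174, since Tshb had 2 probes and no probe was named Pou1f1. One further probe carried an Ensembl transcript in place of a gene name and was described in the files as Pou1f1. On no array was it well above background, and its scaled log2 intensity lay between -8.49 and -6.52.

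The anterior pituitary releases its hormones under the control of factors that the hypothalamus sends through the portal vessels of the median eminence. Its main lobe, the pars distalis, holds somatotropes making growth hormone, lactotropes making prolactin, gonadotropes, thyrotropes and corticotropes. The pars tuberalis is a thin sheet of pituitary cells wrapped around the stalk and median eminence, and its thyrotropes make Cga and Tshb under the control of melatonin rather than of thyrotropin-releasing hormone. Thyrotropin from the pars tuberalis acts on the tanycytes of the neighboring hypothalamus.

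Male ICR mice, an outbred strain, were 3 weeks old at the start and had 2 drinking tubes in each cage. Water mice had water in both tubes, and alcohol mice had water in 1 tube and alcohol solution of 5% or 10% in the other, a choice the array labels do not divide. The study lists the mice of each alcohol pool by this choice under other pool names, and that list was not used in the tests. In it, each pool of mice that drank less holds more mice than any pool of mice that drank more, so pool size goes with intake. All mice had water alone from day 1 to day 5, and the hypothalamus was taken at the end, on day 57 by the design text and on day 51 by the treatment notes. Each of the 12 arrays measured a pool, of 3 mice for water (9 mice in all) and of 1 to 3 mice for alcohol (19 mice in all). The labels give 3 alcohol groups of 3 pools each, divided by intake and, among high drinkers, by time. Their titles read low, early and late alcohol drinker, and they are called low drinkers, early high drinkers and late high drinkers here. A pool averages its mice, so the p-values measure the spread between pools. The arrays were made on 3 slides with 4 positions each. All water pools shared slide 1 with low drinker pool 1. On slide 2 were the other low drinker pools (2 and 3), together with pools 1 and 2 of the early high drinkers. The rest, which are early high drinker pool 3 and all late high drinkers, were on slide 3. Of 8 marker genes of the hypothalamus, 7 were well above background on all 12 arrays and Sim1 on 11. Between 67.0% and 79.3% of the spots of an array were well above background, and no spot was saturated.

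The sequences show what was measured and how the promoters of the members differed. The probe of Gh, 60 bases long, had coordinates on mm9 that covered 244 bases (chr11:106162492-106162735), so that it joined parts of the transcript on both sides of an intron. The second Tshb probe (chr3:102583248-102583307) is shown because its values did not follow those of the first. Its coordinates run upward, whereas Tshb lies on the minus strand and the probes of the other minus-strand members run downward, and whether it reads the Tshb transcript was not tested.
Gh probe: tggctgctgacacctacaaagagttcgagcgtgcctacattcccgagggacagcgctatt
Tshb second probe: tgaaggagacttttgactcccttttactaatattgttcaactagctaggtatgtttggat

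Promoters were taken from RefSeq (GRCm38.p6), which held 8 windows for 7 of the 9 members, with Gh and Pitx1 not listed. The 250 bases upstream of the start of Prl (chr13:27057320-27057569, plus strand), Cga (chr4:34893529-34893778, plus strand) and Tshb (chr3:102782715-102782964, minus strand) are given because Prl had other highest and lowest pools than Cga and Tshb. Capitals mark matches, on either strand, to TATNCAT, a short form of the site bound by Pou1f1 (Pit-1).
Prl promoter: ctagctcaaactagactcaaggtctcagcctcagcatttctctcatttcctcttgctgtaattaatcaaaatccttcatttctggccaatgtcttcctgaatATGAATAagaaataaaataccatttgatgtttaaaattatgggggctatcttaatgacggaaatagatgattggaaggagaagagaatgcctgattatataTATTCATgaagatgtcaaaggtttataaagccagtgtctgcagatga
Cga promoter: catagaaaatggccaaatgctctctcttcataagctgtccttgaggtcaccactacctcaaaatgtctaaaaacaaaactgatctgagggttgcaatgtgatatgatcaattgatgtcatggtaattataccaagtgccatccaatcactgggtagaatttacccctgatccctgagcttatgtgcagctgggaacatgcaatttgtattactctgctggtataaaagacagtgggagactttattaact
Tshb promoter: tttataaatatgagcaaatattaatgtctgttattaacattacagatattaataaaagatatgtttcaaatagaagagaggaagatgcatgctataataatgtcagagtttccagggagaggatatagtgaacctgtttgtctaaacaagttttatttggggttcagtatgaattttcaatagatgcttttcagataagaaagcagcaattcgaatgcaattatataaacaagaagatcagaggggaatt

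Prl held this motif at 2 places, which began at -148 and -47 bases from its start. A match was also present in 1 of the 2 Pou1f1 promoters, and 7.92% of all 32851 promoter windows held one. The motif AAGGTCA, bound by Nr5a1, had a match in the Lhb promoter and in 4.08% of all windows. The motifs TAATCC of Pitx1 (6.25% of all windows), TTATGTAA, known as the D-box (0.819%), and TGACGTCA, the cAMP response element (1.55%), had no match in the windows of the members. None of the matches in the members overlapped another motif searched.

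All values below are scaled log2 intensities, that is the log2 of the background-corrected signal minus the 75th percentile of its array, and they allow comparison of arrays but not of genes. A spot counted as well above background when the scanner software said so. Of the 8 genes with a probe, Cga, Lhb, Tshb and Pitx1 were well above background on all 12 arrays. Gh was so on 7 arrays, Prl on 6, Fshb on 9 and Gnrhr on none. A spot with a signal/noise ratio under 2 was left out of the tests, which removed water pool 2 for Gh and Prl, and 7 of the 8 genes could be tested.

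Growth hormone and prolactin, the products of somatotropes and lactotropes, varied most from pool to pool. Gh lay at -6.15, -8.30 and -3.98 in water pools 1 to 3 and at -0.93, -4.14 and -5.01 in low drinker pools 1 to 3. In early high drinkers it lay at -6.32, -6.23 and -5.70, and in late high drinkers at -5.24, -6.15 and -6.06. The Gh signal thus stood far above the rest in low drinker pool 1, followed by water pool 3 and low drinker pool 2, and the 6 pools of high drinkers lay below the 3 pools of low drinkers.

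Prl lay at -2.91, -8.21 and -0.71 in the water pools and at 0.36, -4.87 and -5.10 in the low drinker pools. It lay at -6.21, -6.87 and -5.59 in early high drinkers and at -4.77, -6.45 and -5.36 in late high drinkers. Low drinker pool 1 and water pool 3 were again the highest, and the signal of water pool 2 was below the signal/noise limit for both genes. Low drinker pool 1 exceeded the median of the other 11 arrays 35.1-fold for Gh and 52.5-fold for Prl, and water pool 3 exceeded it 4.23-fold and 25.0-fold. With Gh well above background on only 7 arrays and Prl on 6, that median is near the background level, and the folds are approximate.

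The spread between pools of the same group had a residual SD of 1.84 for Prl and 1.33 for Gh. Of 32335 probes, 99.98% had a lower SD than Prl and 99.85% a lower SD than Gh, and the median probe had an SD of 0.14. In RNA of a whole tissue, more cells of a type and more RNA per cell cannot be told apart.

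**Figure D1:**
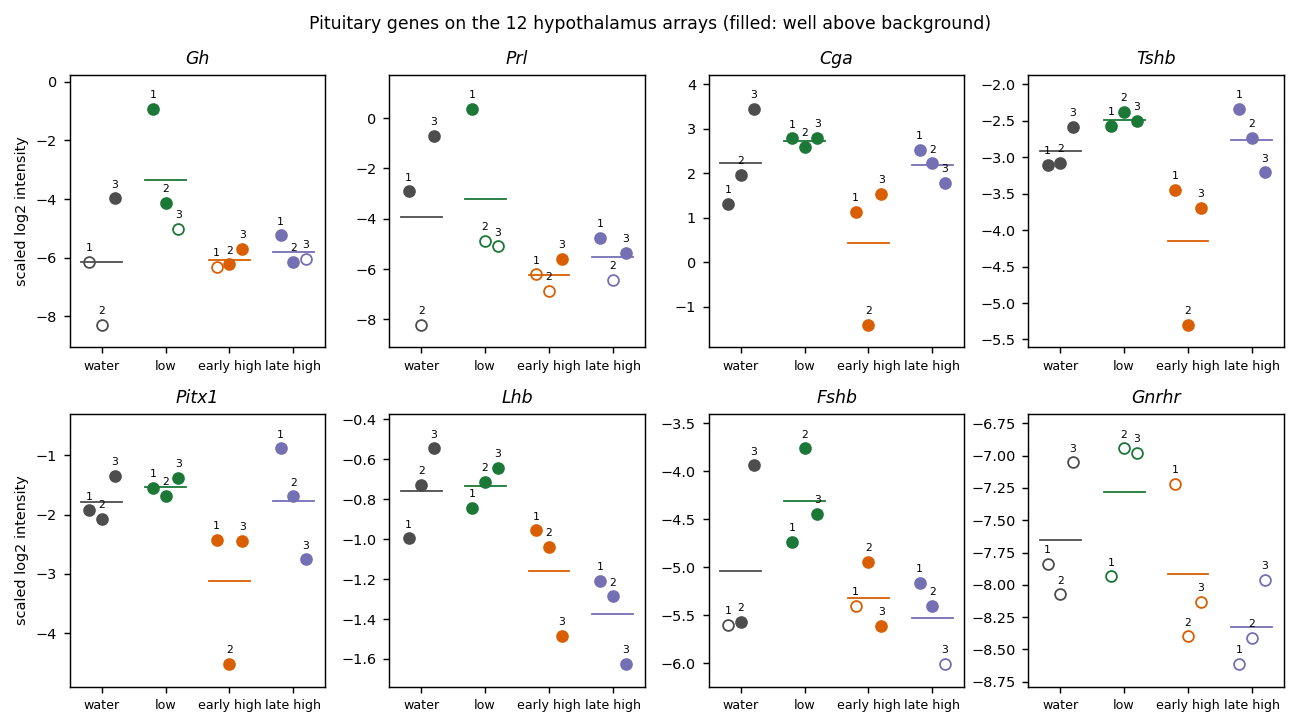
Scaled log2 intensity of the 8 measured genes in each of the 12 pools, by group, with 1 point per array, the pool number above it and a line at the mean of the 3 pools. Filled points were well above background. Gh and Prl are highest in low drinker pool 1, whereas Cga, Tshb and Pitx1 are lowest in early high drinker pool 2.

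The glycoprotein hormone subunits Cga and Tshb and the transcription factor gene Pitx1 had other highest and lowest pools than Gh and Prl. Cga, the alpha subunit shared by thyrotropin and the gonadotropins, lay at 1.31, 1.96 and 3.44 in water and at 2.78, 2.59 and 2.79 in low drinkers. It lay at 1.14, -1.41 and 1.53 in early high drinkers and at 2.52, 2.22 and 1.79 in late high drinkers. Every early high drinker pool lay below every low and every late high drinker pool, and water overlapped with all 3 groups.

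Tshb, the beta subunit of thyrotropin, lay at -3.10, -3.07 and -2.58 in water pools and at -2.57, -2.38 and -2.51 in low drinkers. It lay at -3.45, -5.30 and -3.69 in early high drinkers and at -2.34, -2.73 and -3.21 in late high drinkers. All early high drinker pools were below all the other pools. The second Tshb probe, listed in the opposite orientation, did not share this order: it was well above background on 7 arrays, and its values lay between -6.06 and -5.14.

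Pitx1, expressed from early on in the developing anterior pituitary, lay at -1.93, -2.07 and -1.34 in water and at -1.54, -1.69 and -1.38 in low drinkers. It lay at -2.42, -4.52 and -2.44 in early high drinkers and at -0.88, -1.69 and -2.75 in late high drinkers. Early high drinker pools lay below low drinker and water pools but overlapped with late high drinker pool 3. In early high drinker pool 2, Cga was 12.4-fold, Pitx1 7.12-fold and Tshb 5.93-fold below the median of the other 11 arrays. In the same pool Prl was 3.40-fold below it without being well above background, Gh was 1.45-fold and Lhb 1.06-fold below, and Fshb was 1.37-fold above.

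The gonadotropin beta subunits are products of the gonadotropes. Lhb, the beta subunit of luteinizing hormone, lay at -0.996, -0.73 and -0.54 in water, at -0.84, -0.71 and -0.64 in low drinkers, at -0.96, -1.04 and -1.48 in early high drinkers and at -1.21, -1.29 and -1.63 in late high drinkers. It had the narrowest range of the 7 tested genes, 1.08, and the high drinker pools lay below the low drinker pools. Fshb, the beta subunit of follicle-stimulating hormone, lay at -5.60, -5.57 and -3.94 in water, at -4.73, -3.76 and -4.45 in low drinkers, at -5.40, -4.94 and -5.61 in early high drinkers and at -5.16, -5.40 and -6.01 in late high drinkers. Here too the 6 high drinker pools lay below the low drinker pools. Gnrhr, the receptor through which gonadotropin-releasing hormone acts on gonadotropes, lay between -8.61 and -6.94 and was not well above background.

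**Figure D2:**
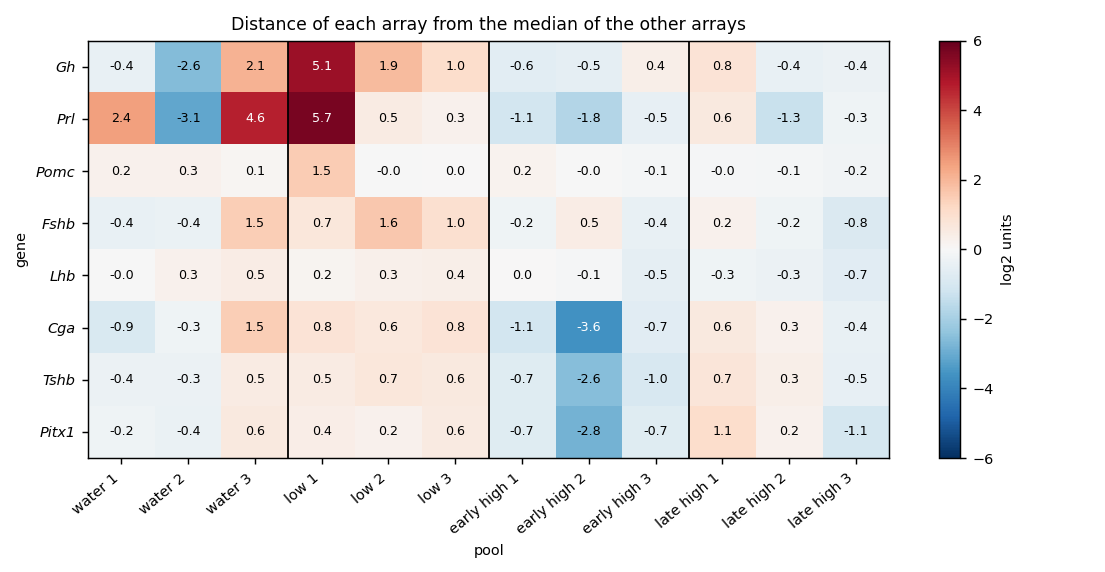
Distance of each array, in log2 units, from the median of the other 11 arrays for the members that were detected and for Pomc, with 1 column per pool and 1 row per gene. The deepest red cells of low drinker pool 1 fall on Gh, Prl and Pomc, and the deepest blue cells of early high drinker pool 2 on Cga, Tshb and Pitx1. In the latter pool Prl was low too (-1.76), without being well above background.

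Alcohol and water pools were first compared, the contrast for which the study was designed. Of the 7 tested members, none passed an unadjusted p of 0.05 by limma, whereas 5.53% of all 32376 probes did, and none passed by the exact permutation test (2-sided); after Benjamini-Hochberg adjustment no probe passed on the whole array. The estimates were below 0 for all 7, with a median of -0.33, against 0.03 over all probes. For Prl, the mean was -4.98 ± 2.13 (SD, n = 9) in alcohol and -1.81 ± 1.56 (SD, n = 2) in water, a difference of -3.17 ± 1.49 (SE; limma p = 0.0579, adjusted p = 0.819; exact permutation p = 0.0545 over 55 arrangements). Without the signal/noise filter, which returns water pool 2 to the comparison, the Prl means were -4.98 and -3.95. Without low drinker pool 1 the difference in Prl was -3.84 (limma p = 0.00019, adjusted p = 0.255), and its exact permutation p was 0.0222 over 45 arrangements, the smallest it can give. That comparison lacks the highest Prl value, in low drinker pool 1, and by the filter the lowest, in water pool 2. Both omissions make the difference larger, 2 water values remain, and it was not run without the filter.

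For Gh the difference was -0.03 ± 1.22 (SE), and without the filter it was 1.05. For Cga it was -0.47 ± 0.79, for Lhb -0.33 ± 0.20, for Tshb -0.21 ± 0.53, for Pitx1 -0.37 ± 0.60 and for Fshb -0.02 ± 0.46 (SE each, n = 9 and 3). The exact permutation p-values of these 5 genes lay between 0.155 and 0.982 over 220 arrangements. Water pools shared a slide with low drinker pool 1 alone, so that water and slide 1 could be separated only through that pool. On slide 1, low drinker pool 1 lay above the mean of the water pools by 0.54 for Cga and 0.35 for Tshb. For Gh it lay 4.14 and for Prl 2.17 above the mean of water pools 1 and 3, and Gh was well above background in only 1 water pool.

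High drinkers were compared with low drinkers (6 pools against 3). All 7 tested members had a lower mean in high drinkers, and 6 of them were below an unadjusted p of 0.05 by limma, whereas 11.8% of the 32335 probes were lower at this threshold and 3.32% were higher. The balance over all probes turned with the scaling, to 6.41% lower and 8.78% higher with quantile normalization and 5.17% lower and 10.4% higher without scaling, while all 7 members stayed lower. With quantile normalization, or with slide as a fixed block, 2 members were below an unadjusted p of 0.05. No member passed after adjustment (adjusted p from 0.165 for Lhb to 0.407 for Pitx1), and 0.294% of all probes did (95 probes, and 2847 without low drinker pool 1). Gh, Cga, Lhb and Fshb did not overlap between the 2 groups, which held for 5.01% of all probes in this direction, though Gh was well above background in only 2 of the 3 low drinker pools. The median difference was -1.11 over the 7 members and -0.05 over all probes.

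For Lhb the mean was -1.27 in high and -0.73 in low drinkers, a difference of -0.53 ± 0.15 (SE; adjusted p = 0.165), 1.45-fold. With slide as a fixed block the Lhb difference was -0.26. Within slide 2 the early high drinkers lay below the low drinkers by -0.32 for Lhb (means of 2 against 2 pools). For Fshb the difference was -1.11 ± 0.39 (SE; adjusted p = 0.251), and for Gh -2.59 ± 0.84 (SE; adjusted p = 0.234). Without low drinker pool 1 the difference in Gh was -1.37 and that in Prl changed from -2.67 to -0.89. For Cga the difference was -1.42 ± 0.63 (SE; adjusted p = 0.33), and the exact permutation p was 0.0952 over 84 arrangements. For Tshb it was -0.96 ± 0.37 (SE; adjusted p = 0.276), and the exact permutation p was 0.167.

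Of the other pituitary genes on the lists and Gnrhr, 5 were not well above background on any array (Lhx3, Hesx1, Tbx19, Neurod4 and Gnrhr). All 5 had their highest mean in low and their lowest mean in late high drinkers, whereas the probe described as Pou1f1 had its lowest mean in early high drinkers (-7.99, against -7.70 in late high drinkers). Spots at this level have no reliable order. The part of the background level in the lower values of Gh, Prl and Fshb was not tested.

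Within the high drinkers, late pools were compared with early pools (3 against 3). The late high drinkers had higher values of Cga by 1.76 ± 0.73 (SE; adjusted p = 0.383), of Tshb by 1.39 ± 0.42 (SE; adjusted p = 0.322) and of Pitx1 by 1.35 ± 0.59 (SE; adjusted p = 0.395). These 3 of the 7 tested members were past an unadjusted p of 0.05, and 4.29% of all probes were higher and 8.08% lower at this threshold. Without scaling these shares turned to 13.6% and 2.74%, and the 3 members stayed higher. The late pools were all on slide 3 and most early pools on slide 2, and no member was past this threshold with slide as a fixed block or by the methods' t-test, and 1 was with slide as a random block. Cga and Tshb did not overlap between these groups, which held for 8.15% of all probes in this direction, and no probe on the array passed after adjustment, whereas 191 did without early high drinker pool 3 and 111 without late high drinker pool 3. Without early high drinker pool 2 the differences were 0.84, 0.81 and 0.65. Gh, Prl and Fshb differed by less than their SE, and Lhb by -0.21 ± 0.17.

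Early high drinkers were also set against low drinkers, a comparison chosen after the values were seen. Cga, Lhb, Tshb and Pitx1, well above background on all arrays, lay lower in every early high drinker pool than in every low drinker pool, which held for 8.30% of all probes. Gh, Prl and Fshb had lower means too, but not all of their spots were well above background, with 1 of 3 in each group for Prl. Of the 7, 5 were below an unadjusted p of 0.05, against 4.36% of probes that were lower at this threshold (2.89% with quantile normalization, where 3.76% were higher), and 2 were by the methods' t-test. The difference was -2.30 ± 0.73 (SE) for Cga, a 4.92-fold lower level (adjusted p = 0.624). It was -1.66 ± 0.42 for Tshb, 3.15-fold (adjusted p = 0.397), and -1.59 ± 0.59 for Pitx1, 3.02-fold (adjusted p = 0.756). With 3 pools against 3, the exact permutation test allows no p under 0.1, the value reached by Cga, Lhb, Tshb and Pitx1.

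Slide 2 held pools of both groups, 2 of each. Within that slide the early high drinkers lay below the low drinkers by -2.83 for Cga, -1.93 for Tshb, and -1.94 for Pitx1 (means of 2 against 2 pools). Without early high drinker pool 2 the difference over all pools was -1.38 for Cga, -1.08 for Tshb and -0.89 for Pitx1. Within slide 3, the mean of the late pools lay above early high drinker pool 3 by 0.65 for Cga, 0.93 for Tshb and 0.66 for Pitx1, and for Pitx1 late high drinker pool 3 lay below it.

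**Figure D3:**
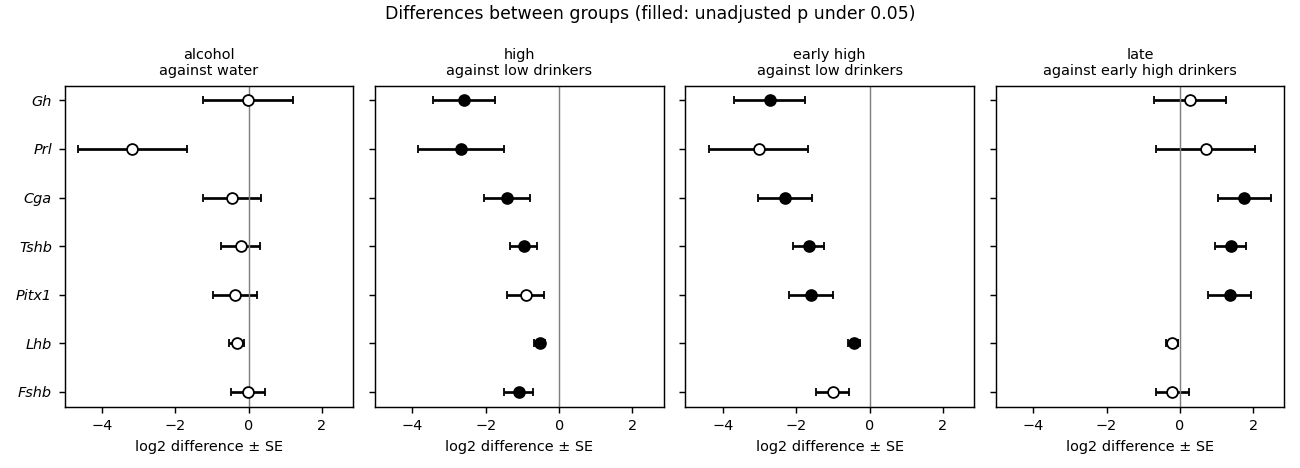
Difference in scaled log2 intensity between groups for the 7 tested members, with bars of 1 SE from limma, for 4 comparisons on a common axis. Filled points had an unadjusted p under 0.05, and none passed after adjustment. No member is filled for alcohol against water, and Cga, Tshb and Pitx1 lie above 0 only for late against early high drinkers.

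Over the 4 groups together, Prl, Cga, Lhb and Tshb were below an unadjusted p of 0.05 by limma, as were 14.7% of the 32335 probes, and the smallest adjusted p was 0.203, for Lhb (0.914 with slide as a fixed block). Without low drinker pool 1, Prl passed after adjustment (adjusted p = 0.0289), as did 6.19% of all probes, against 35 probes with all arrays. That call rests on 2 water values, since the signal/noise filter removes water pool 2, and with all arrays and without the filter Prl had an adjusted p of 0.643 by limma. Between the 3 slides, 2 of the 7 tested members passed after adjustment, Prl (adjusted p = 0.00852) and Lhb (adjusted p = 0.0222), and 8.00% of all 32376 probes did so by limma. The slide fit has no term for the groups, which overlap with the slides, so these calls cannot be told apart from group differences. Prl did not pass when water pool 2 was included by leaving out the signal/noise filter (adjusted p = 0.295), and Lhb did not without late high drinker pool 3 (adjusted p = 0.0626). Cga, Tshb and Pitx1 had adjusted p-values from 0.583 to 0.712 between slides, where slide 2 holds low and early high drinker pools together.

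Across the 12 arrays the members formed pairs and groups that rose and fell together. Tshb and Pitx1 had a Pearson correlation of 0.96 (Spearman 0.91), Cga and Tshb of 0.95 (0.83), and Cga and Pitx1 of 0.92 (0.85). Without early high drinker pool 2 these were 0.87, 0.82 and 0.75, and without that pool and water pool 3, the farthest from the median of Cga, the pair of Cga and Tshb had 0.88. With the slide means removed they were 0.96, 0.95 and 0.91. The arrays share slides and the scaling, and the correlations are given as a description.

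Gh and Prl correlated at 0.85 (Spearman 0.85), 0.62 without low drinker pool 1 and water pool 2, the pools farthest from the median of Gh, and 0.91 with the slide means removed. Gh correlated at 0.45 with Cga, 0.39 with Tshb and 0.37 with Pitx1, with rank correlations of 0.78, 0.64 and 0.66, in which the order of the 5 arrays where Gh was not well above background is not reliable. Without low drinker pool 1 and water pool 2 these pairs had 0.69, 0.58 and 0.56, against the 0.62 of Gh and Prl. Lhb and Fshb correlated at 0.75 (Spearman 0.75). Lhb correlated at 0.29 with Tshb, 0.31 with Pitx1 and 0.32 with Cga, with rank correlations of 0.48, 0.55 and 0.59, and with the slide means removed these pairs had 0.70, 0.77 and 0.77, but with the group means removed 0.16, 0.20 and 0.11. Fshb correlated at 0.58 with Gh (Spearman 0.59; 0.87 without low drinker pool 1 and water pool 2) and at 0.39 with Cga (Spearman 0.66; 0.79 without early high drinker pool 2).

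**Figure D4:**
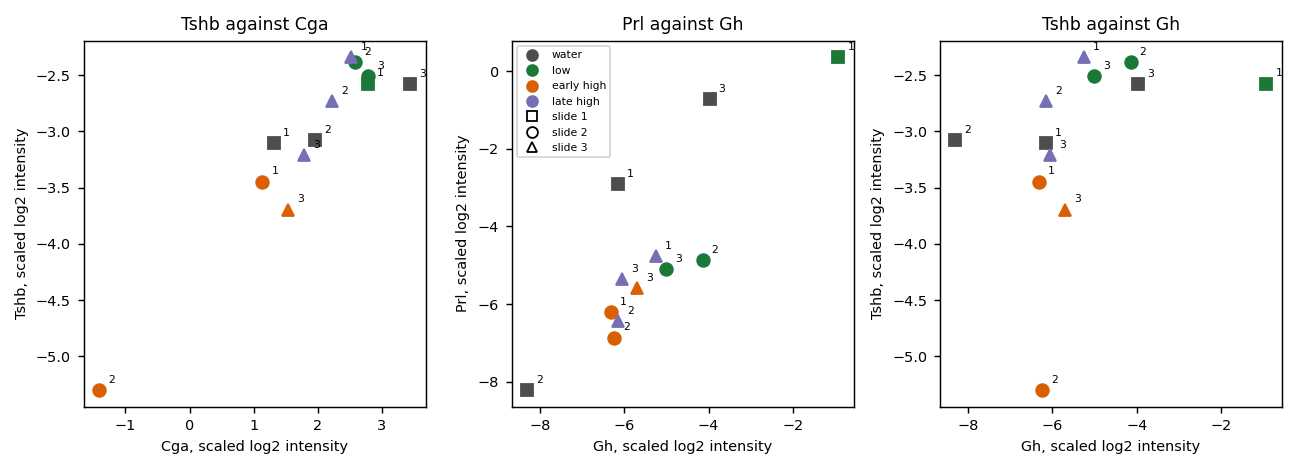
Scaled log2 intensity of Tshb against Cga, Prl against Gh and Tshb against Gh, with 1 point per array, colors for the groups, shapes for the slides and the pool number beside each point. Tshb follows Cga over all 12 arrays (Pearson 0.95), Prl follows Gh (0.85), and low drinker pool 1 is far to the right for Gh at a Tshb value like that of the other low drinker pools.

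The genes most alike to Cga, Tshb and Pitx1 were sought among 26040 probes that were well above background on all arrays. Apart from each other, the closest gene was Cyp2f2, a cytochrome P450, with a Pearson correlation of 0.94 with Cga and Tshb and 0.95 with Pitx1 over the 12 arrays. It lay at -1.85, -2.18 and -0.97 in water, at -1.46, -1.34 and -0.98 in low drinkers, at -2.90, -4.24 and -1.92 in early high drinkers and at -0.89, -1.37 and -2.28 in late high drinkers. Like the members, it was lowest in early high drinker pool 2. Ces1d, a carboxylesterase, was next for Pitx1, with 0.94. Closest to Lhb were Timp1, an inhibitor of metalloproteinases (0.93), Kif24, a kinesin (0.93), and Olfr124, named as an olfactory receptor (0.92), and these 3 lay lowest on average in late high drinkers.

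Of 6 genes of the pars tuberalis, Cga and Tshb among them, 5 were well above background on all arrays. Apart from these members, Eya3, Mtnr1a (the melatonin receptor), Cry1 and Chga were not below an unadjusted p of 0.05 in early high against low drinkers. Chga, a protein of secretory granules, was higher in late than in early high drinkers by 0.19 (adjusted p = 0.382), past that unadjusted threshold, and was lowest in early high drinker pool 2, at -0.018 from the next array.

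Of 12 further genes of the anterior pituitary lineage, 4 were well above background on all arrays (Trhr, Crhr1, Gata2 and Sox2) and 4 on none. In alcohol against water 0 of the 7 tested passed an unadjusted p of 0.05, and 2 (Lhx4 and Ghrhr, each well above background on 1 array) were lower in high than in low drinkers at that threshold, as were 11.8% of all probes. None of the 12 was highest in low drinker pool 1. Among 5 genes of corticotropes and melanotropes, Pomc, the precursor of corticotropin, lay 2.92-fold above the median of the other arrays in low drinker pool 1, at 5.01. The other 11 arrays lay between 3.27 and 3.73. Pomc is made by hypothalamic neurons as well. The processing enzyme genes Pcsk1 and Pcsk2 had ranges of 0.38 and 0.45 over all arrays, and Tbx19, a corticotrope factor gene, was not well above background.

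The hypothalamic factors that act on these cells were well above background on all arrays. Over the 12 arrays, the range was 0.26 for Sst, 0.39 for Ghrh and 0.50 for Trh, and 0.85 for Kiss1, 1.37 for Th and 1.48 for Gnrh1. Of 6 measured releasing and inhibiting factors, Th, which makes the dopamine that restrains prolactin, was higher in alcohol than in water by 0.51 (adjusted p = 0.819), past an unadjusted p of 0.05 as were 5.53% of all probes, and the other 5 were not. In high against low drinkers, Trh was higher by 0.24 and Kiss1, which drives gonadotropin-releasing hormone neurons, was lower by -0.39 at that threshold, at which 3.32% of all probes were higher and 11.8% lower. Of 6 genes of tanycytes, where thyrotropin from the pars tuberalis acts, Rax was higher in alcohol by 0.78 ± 0.23 (SE; adjusted p = 0.819), past an unadjusted p of 0.05, while Dio2, the thyroid hormone activating deiodinase, differed by 0.26 and was not. Dio3, which inactivates thyroid hormone, was lower in high than in low drinkers by -0.89 ± 0.26 (SE; adjusted p = 0.186), and in early high than in low drinkers by -0.68 (adjusted p = 0.876). Its mean was lowest in late high drinkers (-3.97), and its SD in low drinkers was 0.69.

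Markers of tissue next to the hypothalamus were measured as well, and their part in these results was not tested. Markers of the choroid plexus (6 measured), blood (5), thalamus (5), cortex (5), striatum (5) and white matter (5) were summed as scaled signals on each array. For thalamus, the sum lay between 6.998 and 8.20 in water, 5.89 and 11.8 in low, 5.34 and 12.3 in early high and 9.37 and 16.9 in late high drinkers. The choroid plexus sum ranged from 2.51 to 3.23 in water, from 2.79 to 3.13 in low, from 2.38 to 2.90 in early high and from 2.22 to 2.497 in late high drinkers, and within it Ttr had a range of 5.30 on the log2 scale. The blood sum lay between 133.5 and 160.5 in water, 109.7 and 161.8 in low, 118.3 and 144.8 in early high and 87.4 and 113.3 in late high drinkers. Late high drinkers also had low sums for cortex, 3.17 to 3.39 against 3.47 to 4.80 in water, 3.58 to 4.48 in low and 3.24 to 3.71 in early high drinkers. For striatum the sum lay between 3.49 and 3.84 in late high drinkers, and between 4.12 and 4.47 in water, 4.23 and 4.30 in low and 3.59 and 4.51 in early high drinkers. The white matter sum lay between 145.0 and 163.9 in water and between 163.2 and 197.4 in the alcohol groups. In low drinker pool 1, Kl among the choroid plexus markers and Emx1 among the cortical markers were at their highest, and none of the blood, thalamic, striatal and white matter markers was. In early high drinker pool 2, Tcf7l2 and Gbx2 among the thalamic markers were at their lowest, at -0.21 and -0.22 from the next array, as was Gata2 of the pituitary lineage at -0.16. Tcf7l2 was also higher in late than in early high drinkers by 0.78 (adjusted p = 0.372), past an unadjusted p of 0.05.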

How the data were processed

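Hypothalamic RNA was measured on 12 Agilent whole mouse genome 4 × 44 K arrays labeled with Cy3 alone. The authors deposited the scanner output, in which each spot has a linear, background-subtracted signal intensity made with Agilent Feature Extraction (10.5.1.1 by the file headers) and no scaling between arrays. A series table of signal intensity per probe, also deposited by the authors, served as an alternative. The coordinates of the probes are those of mm9 in the files.

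From the log2 of each intensity the 75th percentile of its array was subtracted. Spots that were non-uniform outliers or had a signal below 2 times its error were dropped, and 32376 of 41174 probes with values on over 50% of the arrays of water and of alcohol were tested, following the Methods of the study. The 75th percentile lay between 1512 and 1853, and the number of arrays limits the precision. Of the probes, 25097 took a current symbol through RefSeq. Groups came from the sample labels. Differences between them were fitted in R 4.3.3 by limma 3.58.1 (lmFit and eBayes, with Benjamini-Hochberg adjustment over all probes), and single genes by exact permutation with scipy 1.17.1. The steps were tested on simulated data.

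The members, the gene lists, the motifs and the tests were chosen with earlier results of these data known, and some listed genes and a probe sequence are not reported here. Where a gene had several probes, the brightest on average represented it. Named were all members, the 3 genes most alike to each member detected on all arrays, and from each list the genes at an unadjusted p under 0.05 in alcohol against water, together with genes chosen after their values were seen. Alternatives covered normexp background correction (offset 50), the scaling, the table of the series, the filters, blocks for slide, scan day and replicate number, the methods' t-test and each array left out. Spots not well above background have no reliable order. Figures were drawn with matplotlib 3.10.9.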

Additional observations from a re-analysis of the deposited data

Results flagged for a closer look

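Values far from the rest of the 9 alcohol arrays were sought for 14 genes and probes, with the gap between the extreme array and its nearest neighbor set against the range. Chance alone gives such a value in about 1 of 20 sets. The genes share their arrays, and Pomc and the genes most alike to a member were chosen from their values, so the number found is no test. Low drinker pool 1 was the highest for Gh (gap 0.596 of the range), Prl (0.709) and Pomc (0.761). Early high drinker pool 2 was the lowest for Cga (0.606) and Tshb (0.542).

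Groups in which every pool moved to opposite sides of the water mean were also sought, and the difference between the moves was not tested against water. Of 32335 probes, 1.20% had all low drinkers above and all early high drinkers below the water mean, and 3.97% all low drinkers above and all late high drinkers below it. Low drinkers lay above and early high drinkers below the water mean for Cga (difference between the groups 2.30), Tshb (1.66), Pitx1 (1.59), Cyp2f2 (1.76) and Ces1d (0.96). The last 2 were chosen for their likeness to these members. The same held with small sizes for Olfr124 (0.27) and Timp1 (0.16). Low drinkers lay above and late high drinkers below it for Fshb (1.21), Olfr124 (0.45) and Timp1 (0.39).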

How the results depend on the processing

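Of 649 differences of single members under an alternative, 612 kept their direction and their side of an adjusted p of 0.05, and 37 changed direction; no difference between 2 groups passed an adjusted p of 0.05 for a member under an alternative run, and over the 4 groups only Prl did, without low drinker pool 1 (adjusted p = 0.0289), where 6.19% of all probes passed and 2 water values were left. All members kept their direction for high against low and for early high against low drinkers. With slide or scan day as a fixed block, alcohol against water rested on low drinker pool 1 alone and turned for Gh (4.14), Prl (2.17), Cga (0.54), Tshb (0.35), Fshb (0.30) and Pitx1 (0.24), and 1 member, Gh, was past an unadjusted p of 0.05. With slide as a random block Gh turned to 0.96 and Fshb to 0.0604, with normexp to 0.13 and 0.0057, and without the signal/noise filter Gh turned to 1.05. For late against early high drinkers, slide as a fixed block turned Gh (-0.11), Lhb (0.11) and Fshb (0.0863), normexp turned Gh (-0.10) and quantile normalization turned Fshb (0.0347). The cause of these changes was not tested, except that fewer pools share a slide.

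Leaving out 1 array gave, for alcohol against water, Gh from -0.55 to 0.13 while 2 water values were left (and, with no test, -1.11 without water pool 1 and 1.06 without water pool 3, which leave 1), Cga from -0.93 to 0.14 (without water pool 3), Fshb from -0.30 to 0.53 (without water pool 3) and Tshb from -0.31 to 0.0585 (without early high drinker pool 2). For late against early it gave Gh from -0.0174 (without late high drinker pool 1) to 0.46 and Fshb from -0.39 to 0.0377 (without late high drinker pool 3).

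The number of members past an unadjusted p of 0.05 in alcohol against water was 0, and 1 (Prl) without scaling. It was 4 over the 4 groups, and 2 with quantile normalization, without the filter and with slide as a fixed or random block. It was 6 for high against low drinkers, 2 with quantile normalization or the slide block, and 3 with only spots well above background (of 5 members tested) or by the methods' t-test. For late against early it was 3, with 0 under the slide block and the t-test and 1 under the random block. For early high against low drinkers it was 5, and 2 by the t-test. Between slides it was 2, and 1 without the filter or with only spots well above background. Past an adjusted p it was 2 as well, and 1 under these settings, with the replicate block, and without water pool 1 or 3 (Prl not tested) or late high drinker pool 3. With 1 array left out these numbers lay between 0 and 1 (1, Prl, without low drinker pool 1, also by exact permutation), 2 and 4, 3 and 5 (3 without low drinker pool 2 or late high drinker pool 3), 1 and 4, 4 and 6, and 1 and 2. That Prl call rests on 2 water values.

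Over all probes, 1789 were past an unadjusted p of 0.05 in alcohol against water, 1105 with normexp, 652 with the slide block, 475 with scan day and 546 with the random block, and 1169 to 2919 with 1 array left out. Over the 4 groups there were 4765, 2347 with the slide block, and 2954 to 8294 with 1 array left out. For high against low drinkers there were 4889, 8318 without the filter, 7719 with scan day, 2963 by the t-test, and 3034 to 8216 with 1 array left out. The 95 of these past an adjusted p of 0.05 became 369 with normexp, 186 with only spots well above background, 50 without scaling, 55 with the detected probes for the percentile, 34 with the random block, 28 with the slide block, 2432 with scan day, 1 with quantile normalization, 0 without the filter, with the replicate block and by the t-test, and 1 to 2847 with 1 array left out (2847 without low drinker pool 1). For late against early there were 3999, 1472 with the slide block, and 2375 to 4828 with 1 array left out (after adjustment 0, with 191 without early high drinker pool 3 and 111 without late high drinker pool 3). Between slides there were 9185, 17369 without scaling, 13782 without the filter, and 7684 to 9849 with 1 array left out. For early high against low drinkers, added after the values were seen, there were 1832, 3787 with the slide block, 4528 with scan day, and 1356 to 4930 with 1 array left out.

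The replicate numbers did not pair the pools: over 18 pairs of equal number, deviations from the group means correlated between -0.09 and 0.18. With the replicate number as a block, 1750 probes were past an unadjusted p of 0.05 in alcohol against water, no member was, and Gh turned to 0.18. For single members, slide and scan day as blocks were not run as an exact test, since water shares a slide with 1 alcohol pool. Signal near background limits Gh, Prl, Fshb and Gnrhr.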
